A study of Mus musculus with 6 samples.

Results

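The 10 core cardiac transcription factors Gata4, Gata6, Nkx2-5, Tbx5, Tbx20, Mef2a, Mef2c, Mef2d, Hand2 and Irx4 were followed in the left ventricle of mice with and without the muscle protein MURC. They were found as the probe sets that the platform annotation gives exactly 1 of these symbols, which took 11 of the 35556 probe sets in the table, 2 for Mef2d and 1 for each of the other 9 genes. MURC is the older name of cavin-4, a coat protein that muscle cells add to caveolae, their small membrane pits, and its gene is Cavin4. Total RNA came from the left ventricle of male mice of C57BL/6 background, labelled either as MURC knockout, aged 11, 11 and 13 weeks, or as wild type, aged 13, 13 and 12 weeks, with 3 arrays of each. No other allele, transgene or treatment is named in the labels, which leave unsaid whether each array is its own animal, and p-values therefore rest on the spread of these 6 samples, which may be technical. Because whole ventricle was measured, fewer cells of a type and less RNA per cell cannot be told apart.

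Heart muscle identity is held by a small set of DNA-binding proteins that act together on shared enhancers. The GATA factors bind through zinc fingers, NKX2-5 through a homeodomain, the TBX factors through a T-box, the MEF2 factors through a MADS box and HAND2 through a basic helix-loop-helix. In the embryo they build the chambers, and in the adult ventricle they keep contractile, ion channel and metabolic genes on. GATA4 and the MEF2 proteins also relay growth and stress signals to the genes of cardiac hypertrophy.

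All 11 probe sets had a lower mean in the knockout, as did 59% of all probe sets tested. The 11 differences ran from -0.34 to -0.043 on the log2 scale, and none of them passed the threshold adjusted over all probe sets. Mef2d and Mef2a separated the genotypes most clearly, with lower values on every knockout array than on any wild-type array. Gata6 separated them by a small gap, Gata4, Nkx2-5, Tbx5 and Irx4 were lower in the mean with overlapping arrays, and Tbx20, Mef2c and Hand2 differed least. Of all probe sets tested, 12.9% separated the genotypes with the knockout lower. The muscle genes that these factors are known to drive had a median difference of -0.037, that of all probe sets tested.

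Promoter sequence was read for 7 of the 10 genes, in 9 windows of 250 bases before a RefSeq start in GRCm38.p6, because these factors are known to bind one another's regulatory DNA. No window was read for Gata4, Gata6 or Tbx5, so the motif counts below leave those genes out, and 3 of the 9 windows are of Mef2c. Windows on 1 chromosome were not taken for the factor genes, while the count over all windows was not restricted in that way. The windows of Mef2d (chr3:88142122-88142371, plus strand) and Mef2a (chr7:67372859-67373108, minus strand) are shown because those genes differed most clearly, and that of Hand2 (chr8:57320733-57320982, plus strand) because it alone of the 9 held GATA letters. Each reads 5′ to 3′ towards its start, and capitals mark a GATA match.
Mef2d: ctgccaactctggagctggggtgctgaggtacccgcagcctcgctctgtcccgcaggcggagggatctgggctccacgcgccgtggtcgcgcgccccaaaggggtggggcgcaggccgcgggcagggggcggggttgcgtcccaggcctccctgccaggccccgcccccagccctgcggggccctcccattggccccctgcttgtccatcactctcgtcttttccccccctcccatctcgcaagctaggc
Mef2a: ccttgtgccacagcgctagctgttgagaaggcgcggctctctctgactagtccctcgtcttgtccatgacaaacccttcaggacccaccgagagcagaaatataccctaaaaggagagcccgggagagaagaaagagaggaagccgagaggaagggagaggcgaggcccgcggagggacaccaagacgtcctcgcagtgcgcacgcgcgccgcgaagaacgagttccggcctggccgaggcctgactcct
Hand2: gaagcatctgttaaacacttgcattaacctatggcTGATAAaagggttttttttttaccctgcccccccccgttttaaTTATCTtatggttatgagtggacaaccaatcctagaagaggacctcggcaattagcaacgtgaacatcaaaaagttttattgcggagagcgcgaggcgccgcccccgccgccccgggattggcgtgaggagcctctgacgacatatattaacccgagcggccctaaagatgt
The GATA letters searched, on both strands, were AGATAA with T also taken as the first base and G as the last. Hand2 held 2 matches, TGATAA at 215 to 210 bases before the start and TTATCT, the reverse strand of AGATAA, at 172 to 167 bases before it. Of all 32851 windows of this length, 26.5% held such a match, against 1 of the 9 windows of these genes. The MEF2 consensus was in 0 of the 9 (2.92% of all windows), the NKX2-5 letters TNAAGTG in 0 (10.1%), the T-box letters AGGTGT in 1, at the second of the 3 Mef2c starts (11.8%), and the E-box CANNTG, which basic helix-loop-helix proteins bind, in 4 (66.2%). The E-box can overlap the other motifs. By base composition the Mef2d window was 73.2% G and C and the Mef2a window 61.6%, against 49.2% for Hand2 and a median of 52.4% over all windows. These letters describe the windows only, and enhancers further away were not read.

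The arrays followed their labels. Cavin4 measured 5.38, 5.74 and 5.59 on the knockout arrays and 8.75, 8.62 and 8.07 on the wild-type arrays, a difference of -2.91 (limma adjusted p = 0.012, and 0.0754 with the replicate number as a block). Leaving out 1 array lost that call in 3 of 6 fits, with an adjusted p of 0.118 when knockout replicate 3 was dropped, 0.0777 when wild-type replicate 1 was and 0.0646 when knockout replicate 1 was. The sources used here do not say whether its probe set lies in the deleted part. The 6 array medians ran from 4.60 to 4.71, and arrays correlated at 0.987 to 0.989 within a genotype and 0.985 to 0.988 between genotypes. Knockout replicate 2 stood apart in the atrial myosin light chain genes, with Myl7 at 7.22 and Myl4 at 8.67 against at most 4.11 and 5.61 on the other 5 arrays. The ventricular light chain gene Myl2 and the other 6 markers of ventricular heart muscle were high on all arrays, and their mean level was 12.38 to 12.41 on knockout and 12.36 to 12.40 on wild-type arrays. Values below are deposited log2 expression values, and a difference is knockout minus wild type.

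**Figure D1:**
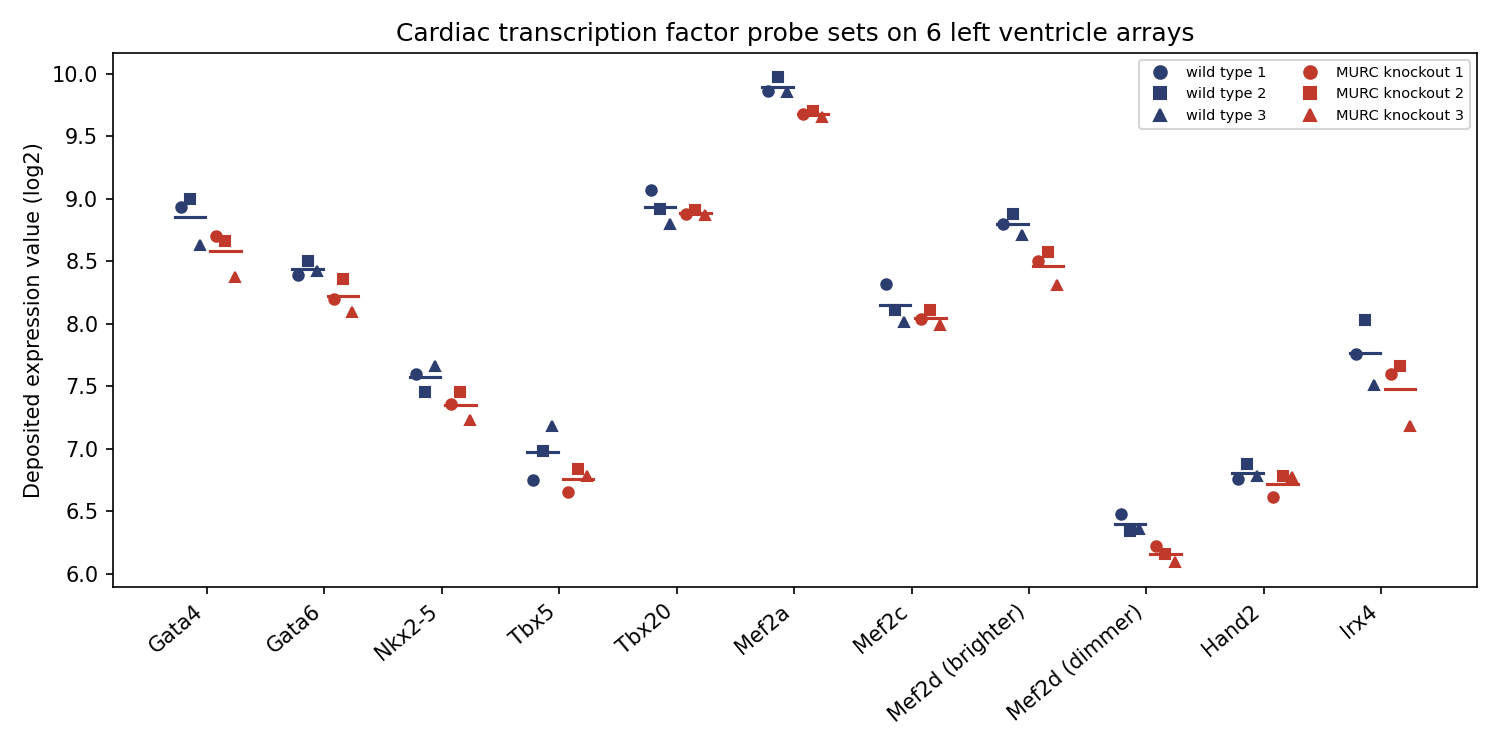
Deposited log2 expression value of each of the 11 probe sets (horizontal axis) on each array, with wild type in blue, MURC knockout in red, the replicate number given by the marker shape and the mean of 3 arrays as a bar. The 2 Mef2d probe sets, Mef2a and Gata6 show no overlap between genotypes, where 12.9% of all probe sets tested have none with the knockout lower. Mef2a sits between 9.65 and 9.70 on knockout arrays and between 9.85 and 9.97 on wild-type arrays.

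The MEF2 family held the smallest p-values of the 11. MEF2D, a MADS-box factor that calcium-dependent kinases activate in stressed heart muscle, was measured by 2 probe sets. The brighter one (probe set 10493177) read 8.50, 8.57 and 8.31 on the knockout arrays and 8.80, 8.88 and 8.71 on the wild-type arrays. Every knockout array lay below every wild-type array, with 0.14 between the nearest values. The means were 8.46 ± 0.13 and 8.80 ± 0.085 (SD, n = 3), a difference of -0.34 (SE 0.085, 95% interval -0.53 to -0.14), so the knockout stood at 79.2% of the wild type. In limma its adjusted p = 0.155 was the smallest among the 11, and its exact two-sided permutation p was 0.1, the smallest that 3 arrays against 3 allow.

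The dimmer Mef2d probe set (10493189) read 6.22, 6.16 and 6.09 on the knockout arrays and 6.48, 6.34 and 6.36 on the wild-type arrays. The genotypes again did not overlap, and the gap was 0.12. Its difference was -0.24 (SE 0.079, 95% interval -0.42 to -0.052, limma adjusted p = 0.261, exact permutation p = 0.1). Both probe sets measure 1 gene on the same arrays and are not separate evidence.

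Mef2a (probe set 10564451), whose product is a main MEF2 protein of adult heart muscle, read 9.68, 9.70 and 9.65 on the knockout arrays and 9.86, 9.97 and 9.85 on the wild-type arrays. These arrays had little spread, and the genotypes were 0.15 apart at their nearest. The means of 9.68 ± 0.025 and 9.89 ± 0.067 (SD, n = 3) differed by -0.22 (SE 0.056, 95% interval -0.35 to -0.085, limma adjusted p = 0.166, exact permutation p = 0.1). The knockout level was 86.1% of the wild type.

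Mef2c (10406434), the MEF2 gene required for formation of the looping heart, read 8.04, 8.11 and 7.99 on the knockout arrays and 8.32, 8.11 and 8.01 on the wild-type arrays. Only wild-type replicate 1 stood above the knockout range. The difference was -0.10 (SE 0.090, 95% interval -0.31 to 0.11, limma adjusted p = 0.691, exact permutation p = 0.5), and it was -0.013 without wild-type replicate 1.

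Within arrays, the log2 ratio of Mef2d to Mef2c averaged 0.41 ± 0.081 on knockout arrays and 0.65 ± 0.15 on wild-type arrays (SD, n = 3). It was lower on all 3 knockout arrays, though the highest of them, at 0.46, lay close to wild-type replicate 1 at 0.48. The difference of -0.24 had an exact two-sided permutation p of 0.1. Adjusted over the 5 ratios compared within families, the p of this ratio was 0.5. The ratio of Mef2a to Mef2c differed by -0.12 (exact permutation p = 0.4, adjusted 0.625) and that of Mef2d to Mef2a by -0.12 (exact permutation p = 0.2, adjusted 0.5). With 3 arrays a group this test cannot reach 0.05, so it cannot show whether the ratios differ.

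The zinc finger factors were both lower in the mean. Gata4 (10420747), which controls cardiac growth genes such as the natriuretic peptide genes, read 8.70, 8.66 and 8.37 on the knockout arrays and 8.93, 9.00 and 8.63 on the wild-type arrays. Wild-type replicate 3 lay among the knockout arrays, and knockout replicate 3 was lowest. The means of 8.58 ± 0.18 and 8.85 ± 0.20 (SD, n = 3) differed by -0.28 (SE 0.12, 95% interval -0.57 to 0.013, limma adjusted p = 0.385, exact permutation p = 0.3), and by -0.17 without knockout replicate 3.

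Gata6 (10453857), which overlaps with GATA4 in function during heart development, read 8.20, 8.36 and 8.09 on the knockout arrays and 8.39, 8.50 and 8.42 on the wild-type arrays. The genotypes did not overlap, though only 0.03 lay between knockout replicate 2 and wild-type replicate 1. The difference was -0.22 (SE 0.082, 95% interval -0.41 to -0.029, limma adjusted p = 0.307, exact permutation p = 0.1), a knockout level of 85.9% of the wild type. On the same arrays the ratio of Gata4 to Gata6 differed by -0.057 between genotypes (exact permutation p = 0.9, adjusted over the 5 ratios 0.9).

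Nkx2-5 (10449292), the homeobox factor of early heart muscle specification and of the conduction system, read 7.36, 7.45 and 7.23 on the knockout arrays and 7.60, 7.45 and 7.66 on the wild-type arrays. Knockout replicate 2 equalled wild-type replicate 2, and the other knockout arrays lay below all wild-type arrays. The difference was -0.22 (SE 0.087, 95% interval -0.43 to -0.020, limma adjusted p = 0.325, exact permutation p = 0.2). With each array left out in turn, Nkx2-5 measured between -0.28 and -0.165.

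Both T-box factors overlapped between genotypes. Tbx5 (10525030), an activator of atrial, left ventricular and conduction genes, read 6.65, 6.84 and 6.78 on the knockout arrays and 6.75, 6.98 and 7.18 on the wild-type arrays. Wild-type replicate 1 lay within the knockout range, and the other wild-type arrays lay above it. The difference was -0.21 (SE 0.12, 95% interval -0.49 to 0.061, limma adjusted p = 0.488, exact permutation p = 0.3). It was -0.11 without wild-type replicate 3 and -0.32 without wild-type replicate 1.

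Tbx20 (10591853), needed in the adult heart to maintain contractile and ion handling genes, read 8.88, 8.91 and 8.87 on the knockout arrays and 9.07, 8.92 and 8.80 on the wild-type arrays. All knockout arrays lay inside the wild-type range. The difference of -0.043 (SE 0.077, 95% interval -0.22 to 0.14, limma adjusted p = 0.857, exact permutation p = 0.7) was the smallest of the 11, and without wild-type replicate 1 it was 0.027, the one of the settings run in which any of the 11 was higher in the knockout. The ratio of Tbx5 to Tbx20 differed by -0.17 (exact permutation p = 0.5, adjusted over the 5 ratios 0.625).

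Hand2 (10571860), a helix-loop-helix factor best known for building the right ventricle, read 6.61, 6.78 and 6.77 on the knockout arrays and 6.76, 6.88 and 6.78 on the wild-type arrays. Only knockout replicate 1 lay below the wild-type range. The difference was -0.087 (SE 0.079, 95% interval -0.27 to 0.098, limma adjusted p = 0.698, exact permutation p = 0.5). Dropping knockout replicate 1 gave -0.032 and dropping wild-type replicate 2 gave -0.050.

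Irx4 (10406017), an Iroquois homeobox factor that marks the ventricle and represses atrial genes, read 7.60, 7.66 and 7.18 on the knockout arrays and 7.76, 8.03 and 7.51 on the wild-type arrays. It varied most within a genotype among the 11, with an SD of 0.26 in each, and wild-type replicate 3 lay inside the knockout range. The difference was -0.29 (SE 0.17, 95% interval -0.67 to 0.10, limma adjusted p = 0.512, exact permutation p = 0.3). On knockout replicate 2, the array with high Myl7 and Myl4, Irx4 was the highest of the knockout arrays, and without that array the difference was -0.38. Dropping knockout replicate 3 gave -0.14, dropping wild-type replicate 2 gave -0.155 and dropping wild-type replicate 3 gave -0.415.

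**Figure D2:**
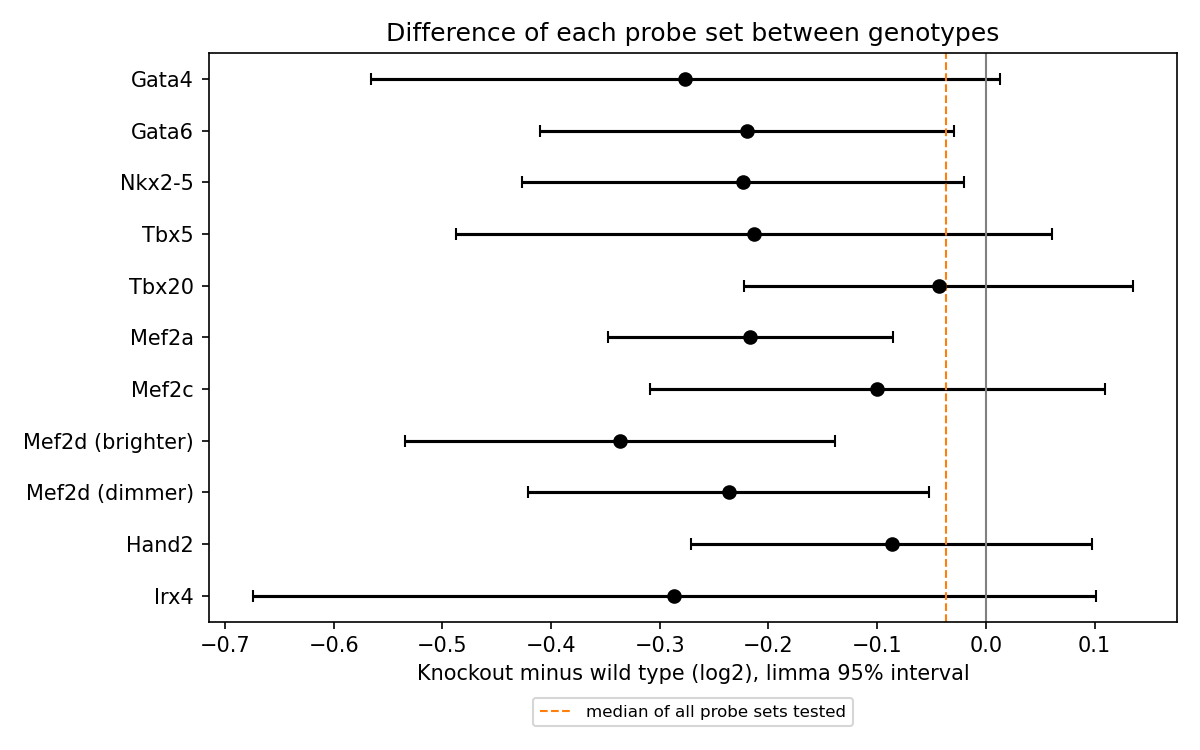
Knockout minus wild type on the log2 scale (horizontal axis) for each of the 11 probe sets, with limma 95% intervals over 3 arrays a group. The orange line is the median of all probe sets tested, -0.037. All points lie below 0, as do those of 59% of all probe sets tested. The intervals of Gata6, Nkx2-5, Mef2a and both Mef2d probe sets lie below 0 throughout. Of all probe sets tested, 9.02% were lower at an unadjusted limma p under 0.05.

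Counted together, 5 of the 11 were lower with an unadjusted limma p under 0.05, namely both Mef2d probe sets, Mef2a, Gata6 and Nkx2-5. Counted by gene, with the brighter Mef2d probe set alone, these were 4 of 10. Of all 24898 probe sets tested, 9.02% were lower at that p and 4.71% higher, and of those with 1 symbol 8.98% were lower. In 4 of the 11, or 3 of the 10 genes, the genotypes did not overlap, with the knockout lower, against 12.9% of all probe sets. None passed the adjusted threshold, and over all probe sets 1 did, that of Cavin4, or 0.00402%. All 11 had a difference below 0, as did 59% of all probe sets and 62.1% of those with 1 symbol, so the direction alone was common on these arrays. The median of the 10 genes was -0.22, beside -0.037 for all probe sets tested and -0.043 for those with 1 symbol. Without knockout replicate 3 the count of 5 became 2, the brighter Mef2d probe set and Mef2a, and the median was -0.16. The share of all probe sets lower at that p was then 6.02% in place of 9.02%.

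Single arrays weighed on several of these values. Knockout replicate 3 was the lowest of the 6 arrays in 8 of the 11 probe sets and the lowest knockout array in 9. Its mean deviation from the knockout means over the 11 was -0.090, while its median deviation over all probe sets tested was -0.0033. It was also the one knockout sample aged 13 weeks, as were wild-type replicates 1 and 2. Against those 2 arrays of its own age it was lower in 9 of the 11 probe sets, which held for 42.9% of all probe sets. For 8 of those 9 probe sets this follows from its being the lowest of the 6 arrays, so the count is not separate evidence. Its differences from the mean of those 2 arrays were -0.715 for Irx4, -0.595 for Gata4 and -0.53 for the brighter Mef2d probe set. With age as a covariate all 11 differences stayed below 0 and the median of the 10 genes was -0.28.

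Without knockout replicate 2, the array with atrial light chain signal, all 11 differences were below 0 and 5 of them were at an unadjusted limma p under 0.05, where 7.56% of all probe sets were lower at that p. The median of the 10 genes was then -0.265, and the largest differences were -0.39 for the brighter Mef2d probe set, -0.38 for Irx4 and -0.32 for Gata4. Of the 6 atrial markers, 2 (Sln and Bmp10) were too dim to be tested, and the mean level of the 6 was 6.34 on knockout replicate 2 against 4.90 to 5.18 on the others.

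Markers of the other cells of the ventricle were read beside the factors. The 7 ventricular muscle markers had a median difference of 0.0067, between -0.037 and 0.063, and 0 had an unadjusted limma p under 0.05. When all levels were set relative to those 7 markers on each array, the median of the 10 factor genes was -0.235 and 6 of the 11 were at an unadjusted p under 0.05. The median of all probe sets was -0.053 on that scale, and 11.5% of them were lower at that p. The mean level of the 7 markers differed by 0.017 between genotypes, so the scaling lowered every difference by that amount alone. These markers lie near the top of the array range, where differences can be compressed. The scaling therefore cannot show whether the share of muscle cells differed. The 6 endothelial markers had a median of 0.013 and the 6 fibroblast markers one of -0.042, with 0 at that p in either list. All 6 macrophage and leukocyte markers were lower, as were 59% of all probe sets. Their median was -0.21 and their mean level 6.40 to 6.63 on knockout and 6.58 to 6.96 on wild-type arrays. Of these 6, C1qb alone had an unadjusted p under 0.05, where 9.02% of all probe sets were lower at that p. Of the 6 smooth muscle and pericyte markers, Myh11 and Tagln were higher at that p, as were 4.71% of all probe sets. The mean level of the 6 was 7.14 to 7.21 on knockout and 6.98 to 7.07 on wild-type arrays. The 1 red cell marker with a probe set of its own, Alas2, measured -0.017. None of these marker genes passed the adjusted threshold, and their part in the differences of the factors was not tested.

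The partner list held 24 cofactors, kinase-regulated repressors and co-binding factors, such as SRF and its coactivator myocardin, the FOG proteins that bind GATA factors and the class II histone deacetylases that hold MEF2 silent. All 24 were tested, 19 were below 0 with a median of -0.080, and 2 had an unadjusted limma p under 0.05, both lower, which is 8.33% beside 9.02% of all probe sets. None passed adjusted over all probe sets. Nfatc3, whose product is activated by calcineurin, measured 6.76 ± 0.046 against 7.03 ± 0.085 (SD, n = 3), a difference of -0.27 (SE 0.074, limma adjusted p = 0.187) without overlap. Prox1, a homeobox factor of developing heart muscle, measured -0.35 (limma adjusted p = 0.322) without overlap. Without knockout replicate 3 Prox1 measured -0.22 (limma adjusted p = 0.629), and 1 partner in place of 2 was lower at an unadjusted p under 0.05.

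The next partners by p were Smyd1, a muscle methyltransferase, at -0.16, Hdac5 at -0.17, the GATA cofactor gene Zfpm1 at -0.14 and Hdac4 at -0.12, none with an unadjusted p under 0.05. Smyd1 was -0.090 when knockout replicate 3 was dropped and Hdac4 -0.068 when wild-type replicate 1 was. Srf measured -0.12 (SE 0.085) and Myocd -0.15 (SE 0.10), with overlapping arrays.

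Of 10 related developmental factors, 8 had a probe set and 7 were tested, Isl1 being too dim. Gata5, the third GATA gene of the heart, was dim and measured 4.09 ± 0.083 against 4.48 ± 0.11 (SD, n = 3), a difference of -0.39 (SE 0.11, limma adjusted p = 0.195) without overlap. It was the 1 of 7 with an unadjusted p under 0.05, where 9.02% of all probe sets were lower at that p. Irx3, the Iroquois relative of Irx4 that acts in the conduction system, measured -0.29 (SE 0.14, limma adjusted p = 0.44) with overlap. The others named by p were Tbx18 at -0.15, Hand1 at -0.060, the T-box repressor genes Tbx3 at 0.037 and Tbx2 at -0.033, and the direction of Tbx2 turned when arrays were weighted. Tbx18 was -0.025 without wild-type replicate 1, -0.075 without knockout replicate 2 and -0.051 with age as a covariate.

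Textbook targets of the factors in heart muscle lay on both sides of the wild type. Of 26 genes, 24 were tested, 13 below 0, 10 above and 1 at 0, with a median of -0.037, equal to that of all probe sets. An unadjusted limma p under 0.05 was found for 2 lower genes and 1 higher gene, 8.33% and 4.17% of the 24. Of all probe sets 9.02% were lower and 4.71% higher at that p, and 0 of the 24 passed adjusted. Gja1, the connexin of ventricular gap junctions, measured 9.71 ± 0.081 against 9.95 ± 0.10 (SD, n = 3), a difference of -0.24 (SE 0.073, limma adjusted p = 0.227) without overlap. Kcnd2, a potassium channel gene of early repolarization, measured -0.30 (limma adjusted p = 0.325) with overlap and -0.18 without wild-type replicate 3, and Ckm, muscle creatine kinase and a classic MEF2 target, measured 0.13 (limma adjusted p = 0.343) higher without overlap.

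Among the contractile targets, Myh6, the main adult myosin heavy chain of mouse heart, measured 12.71 in both genotypes, with a difference of 0 (SE 0.043). Actc1, cardiac actin, measured -0.11 and the troponin gene Tnnc1 0.16, neither with an unadjusted p under 0.05, and Ppargc1a, a coactivator of mitochondrial genes that MEF2 drives, measured -0.15. Nppa, the atrial natriuretic peptide gene and a joint target of GATA4, NKX2-5 and TBX5, measured 0.11 (SE 0.19), Nppb -0.14 (SE 0.34) and the fetal myosin gene Myh7 -0.080 (SE 0.41). Those 3 overlapped between genotypes, and the direction of each turned when a single array was left out, to -0.11 for Nppa without knockout replicate 2, 0.13 for Nppb without wild-type replicate 2 and 0.37 for Myh7 without wild-type replicate 1. Brightness near the top of the array range, as for Myh6, can also compress differences.

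**Figure D3:**
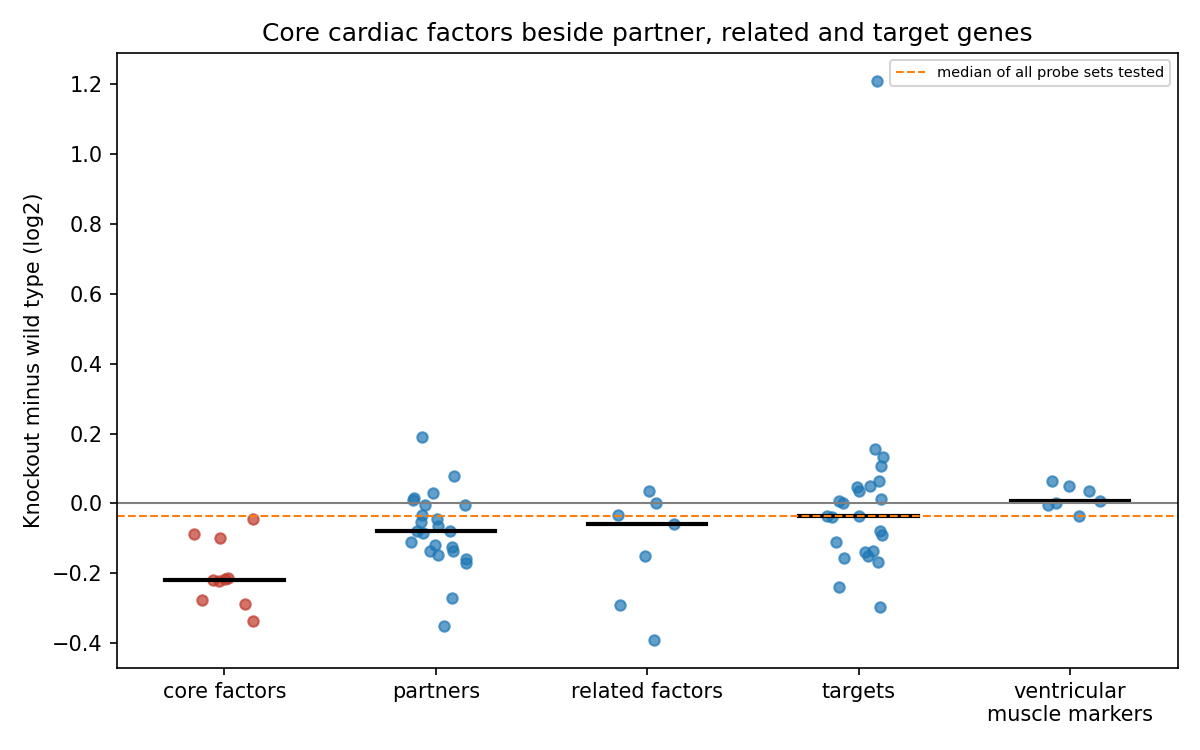
Knockout minus wild type on the log2 scale (vertical axis) for the 10 factor genes, their 24 partners, 7 related factors, 24 targets and 7 ventricular muscle markers, 1 point per gene tested, with list medians as black bars and the median of all probe sets as the orange line. The factor genes have a median of -0.22, the partners -0.080, the related factors -0.060, the targets -0.037 and the markers 0.0067, and the highest point among the targets is Myl7 at 1.21, which rests on knockout replicate 2.

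Across the 16 other ways of processing the values, the brighter Mef2d probe set measured between -0.40 and -0.26 and Mef2a between -0.24 and -0.18, and both had an unadjusted limma p under 0.05 in every one. Their smallest adjusted p was 0.0645 and 0.111. Gata6 had an unadjusted limma p under 0.05 in 10 of the 17 settings, the main test included, and Nkx2-5 in 8. Gata4 ranged from -0.39 to -0.17, Irx4 from -0.415 to -0.14, Gata6 from -0.29 to -0.16 and Tbx5 from -0.32 to -0.11. After quantile normalization, which set the median of all probe sets at -0.0078, the 11 stayed below 0 with a median over genes of -0.18. Both Mef2d probe sets and Mef2a, 3 of the 11, then had an unadjusted p under 0.05, where 7.10% of all probe sets were lower at that p. When only probe sets listed in the annotation were tested, 238 of 17934 passed lower, or 1.33%, and none of the 11 was among them.

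**Figure D4:**
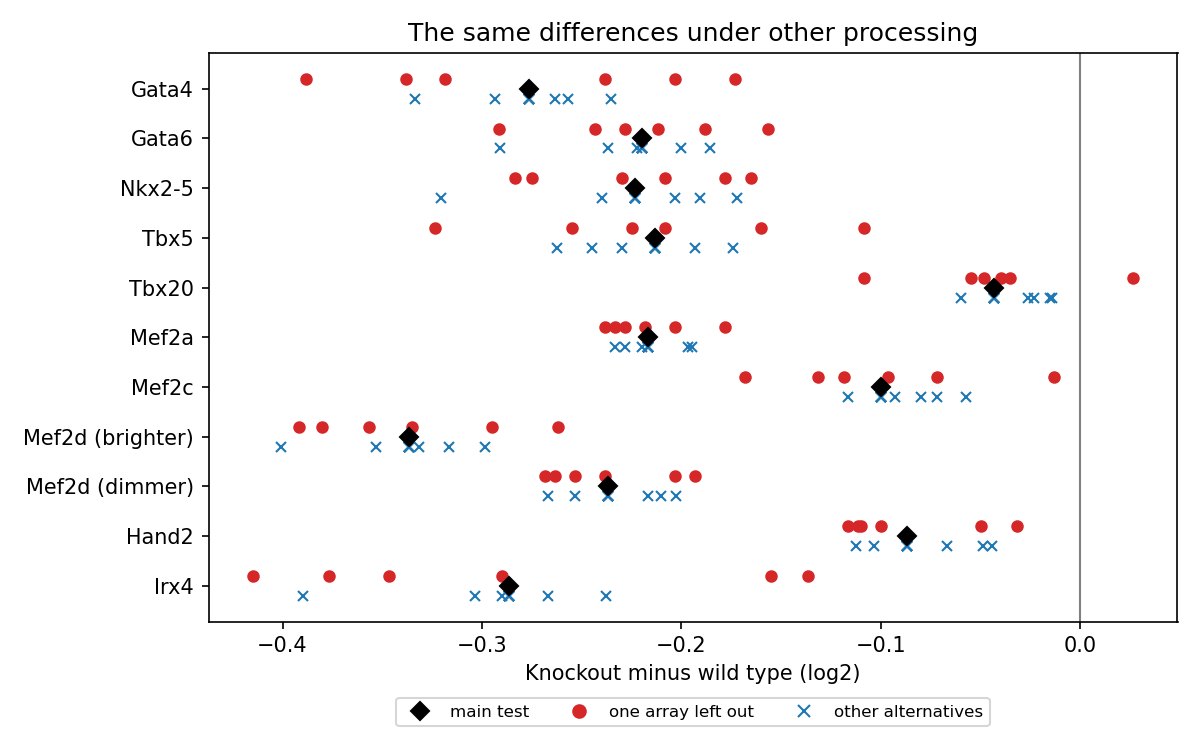
Knockout minus wild type on the log2 scale (horizontal axis) for each of the 11 probe sets in the main test (black diamonds), with 1 array left out (red circles) and under the other alternatives (blue crosses). Only Tbx20 has a point above 0, at 0.027, and the points of Mef2a lie between -0.24 and -0.18.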

How the data were processed

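The deposited table holds a log2 value for each probe set on each array, made by the authors. Per the submitters' processing notes MAS5 was used, in a role left unstated. For background correction, summarization, scaling and the array's genome build, the sources used here give nothing, so no probe set coordinates are printed. The coordinates of the promoter windows are those of RefSeq (GRCm38.p6). That the deposited values are log2 was read from their range. They were used as they stand. Names come from the platform annotation, and those of list genes from symbols updated through RefSeq (GRCm38.p6). The brightest probe set stood for a gene.

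Knockout was compared with wild type in R 4.3.3 with limma 3.58.1 (lmFit, eBayes with an intensity trend, two-sided) over the 24898 probe sets whose mean was at or above the 30th percentile, a log2 value of 3.45, which all 11 probe sets of the factors passed. P-values were adjusted by Benjamini-Hochberg over all of these, with a threshold of 0.05. The fit was tested on simulated data. Differences are of log2 signals, which background can compress, and the number of arrays limits the precision. Ratios within families used an exact permutation test.

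Named are all factor genes, Cavin4, the 6 genes of smallest p in the partner, related and target lists, and Nppa, Nppb, Myh6 and Myh7. Srf, Myocd, Myl7, Myl4, Myl2, Isl1 and the other marker genes were named after their values were seen. The factors and lists were chosen with earlier results of these data known, and the scaling to ventricular muscle markers was added after the data were seen. Promoter windows come from RefSeq (GRCm38.p6) without the transcribed bases. The labels do not say whether same-numbered arrays are paired. Over all probe sets tested their deviations from the genotype means correlated at -0.06, 0.02 and -0.06. That cannot decide it, because unshared spread can hide pairing. Over the 11 probe sets, mean deviations on knockout and wild-type arrays were 0.011 and 0.014 (number 1), 0.080 and 0.045 (number 2), and -0.090 and -0.059 (number 3). With the replicate number as a block, unadjusted limma p was 0.0047 for Gata4, 0.010 for Irx4 and 0.070 for Nkx2-5. Without the block these were 0.058, 0.125 and 0.035.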

Additional observations from a re-analysis of the deposited data

How the results depend on the processing

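The median of the 10 genes stayed below 0 under every alternative. Over all probe sets, 130 passed the adjusted threshold after quantile normalization, 105 after median centring, 48 with the filter at the 50th percentile, 361 among listed probe sets, 126 with array weights, 34 with age as a covariate, 0 with the replicate block, 3 relative to the ventricular muscle markers and 0 to 11 with an array left out, yet 0 of the 11 probe sets of the factors passed in any. Those with an unadjusted p under 0.05 numbered 3 after quantile normalization, median centring or without an intensity trend (7.10%, 7.29% and 8.06% of all probe sets lower at that p), 6 with the replicate block (8.51%), and 2 to 5 with an array left out (6.02% to 9.43%). Cavin4 had an adjusted p of 0.0754 with the replicate block at an unchanged -2.91, and ranged from -3.115 to -2.775 with an array left out, where 3 of the 6 fits lost the call (adjusted p of 0.0646 to 0.118). Tbx20 was reversed only without wild-type replicate 1, at 0.027. Other reversed directions were Tbx2 at 0.022 with array weights, Nppa at -0.015, Nppb at 0.11 and Myh7 at 0.21 with age as a covariate, and with an array left out Tbx2 ran from -0.13 to 0.027, Nppa from -0.11 to 0.22, Nppb from -0.60 to 0.13 and Myh7 from -0.57 to 0.37. The cause of these shifts was not tested. The spread of 3 arrays limits what can be told apart, since the 95% intervals of Tbx20, Mef2c and Hand2 reach from -0.31 to 0.14.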
